A study of Mus musculus with 6 samples.

Results

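The genes described here are the short structural RNAs that the study's expression table typed as rRNA or misc_RNA. They were chosen by that type alone, matched by Ensembl identifier to mouse symbols, and grouped by name. Of 10065 gene rows, 54 had one of these types, 32 as rRNA and 22 as misc_RNA. By name, 23 were 5S rRNA genes (symbols beginning n-R5s), 9 were other rRNA genes, 3 were 7SL RNA genes, 1 was the 7SK RNA gene, 2 were Y RNA genes and 16 misc_RNA genes had no descriptive name. The vault RNA gene Vaultrc5 had no row. The ribosomal RNAs of the mitochondrial genome are a separate type and are not among the 54.

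Small RNA libraries were made from total RNA of hearts from mice of strain SV129 at postnatal day 6. There were 3 samples of ADAR2 knockout mice (genotype Adarb1-/-, Gria2R/R) and 3 of mice labelled wild type. The labels name the Gria2R/R allele, a pre-edited glutamate receptor gene that rescues the knockout from early death, in the genotype of the knockout only, but the extraction notes give both sibling groups as carrying it, so the wild type samples were Adarb1+/+ on the same allele. The study's methods describe whole hearts of female siblings, so each library mixed all cell types of the organ. Adarb1 encodes ADAR2, an enzyme that converts adenosine to inosine in double-stranded RNA.

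For each gene the table holds 1 level, the authors' mean normalized count over all 6 samples, which is called the mean below. Its other columns are the authors' own comparison of the genotypes and were not used. No value per sample, SD or test could therefore be given, no gene can be said to differ between knockout and wild type from what follows, and the depth of each library is unknown. Differences between means below are descriptions, and neighbours in an order cannot be told apart. The means of all rows summed to 214408, with a median of 6.65 and a lowest value of 1.09. Adarb1 itself had a mean of 16.6, which pools both genotypes and so does not check the knockout. Of 24 marker genes of heart cell types, 17 had a row, with a median of 7.93. Cardiomyocyte markers ran from Myl2 at 3.99 to the myosins Myh6 at 425 and Myh7 at 943, and Tnni3, Myl7 and Nppa had no row. Fibroblast markers ran from Col1a1 at 5.40 to Col3a1 at 44.8, and Dcn had no row. Endothelial markers ran from Kdr at 2.59 to Pecam1 at 11.6, and blood markers from Hbb-bs at 3.21 to Ptprc at 7.93. The smooth muscle markers Acta2, Myh11 and Tagln had no row.

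5S rRNA is a component of the large ribosomal subunit and is copied by RNA polymerase III from tandem repeats, while 18S, 5.8S and 28S rRNA are cut from a single precursor made by RNA polymerase I. 7SL RNA is the scaffold of the signal recognition particle, which brings ribosomes that are making secreted or membrane proteins to the endoplasmic reticulum. 7SK RNA holds the elongation factor P-TEFb in an inactive complex, and Y RNAs bind the Ro protein. These RNAs are abundant and folded, and many are copied across the genome as pseudogenes, so that one short read may match many genes.

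The sequences below belong to the members on which the results turn and were taken from GENCODE M21 transcripts (build GRCm38), written 5′ to 3′ as DNA. Gm25164 and the first 120 bases of the CT010467.1 transcript are shown because these genes had the highest means, and they carry no capitals. In Rny1 and Rny3 the capitals mark the longest run that they share, and in Rn7sk the 241 bases from its 5′ end that it shares with Gm24447.
Gm25164 (chr10:78518623-78518738, plus strand): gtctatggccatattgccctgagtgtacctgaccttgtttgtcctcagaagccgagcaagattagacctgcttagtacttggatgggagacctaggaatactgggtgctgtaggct
CT010467.1, bases 1 to 120 (chr17:39848082-39848201, minus strand): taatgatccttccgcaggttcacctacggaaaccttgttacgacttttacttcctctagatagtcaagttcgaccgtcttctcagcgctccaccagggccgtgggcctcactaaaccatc
Rny1 (chr6:47788069-47788180, minus strand): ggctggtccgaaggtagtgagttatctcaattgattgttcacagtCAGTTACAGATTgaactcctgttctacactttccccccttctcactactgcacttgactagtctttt
Rny3 (chr6:47781624-47781725, plus strand): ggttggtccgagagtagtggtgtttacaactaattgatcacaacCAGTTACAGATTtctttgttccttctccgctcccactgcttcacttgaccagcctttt
Rn7sk, bases 1 to 241 (chr9:78175393-78175633, minus strand): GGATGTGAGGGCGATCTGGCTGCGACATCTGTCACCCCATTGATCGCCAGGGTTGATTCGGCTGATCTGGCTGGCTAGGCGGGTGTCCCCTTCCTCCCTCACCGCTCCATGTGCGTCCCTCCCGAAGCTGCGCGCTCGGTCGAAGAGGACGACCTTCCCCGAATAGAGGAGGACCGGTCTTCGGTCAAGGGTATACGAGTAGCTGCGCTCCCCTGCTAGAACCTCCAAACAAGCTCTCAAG

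The 54 means summed to 3759, which was 1.75% of the summed mean of the table. Most of it lay on a pair of genes. CT010467.1 had a mean of 2050, or 54.5% of the members' sum, and ranked 4 among all 10065 rows, and Gm25164 had a mean of 977 and ranked 12. Together they held 80.5%, and without them the other 52 genes made up 0.342% of the table. The next gene, Rn7s1, had a mean of 84.2 and ranked 382. A mean of 10 was reached by 21 of the 54 and by 3621 of all 10065 rows, and the median of 7.28 lay near the table's 6.65.

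**Figure D1:**
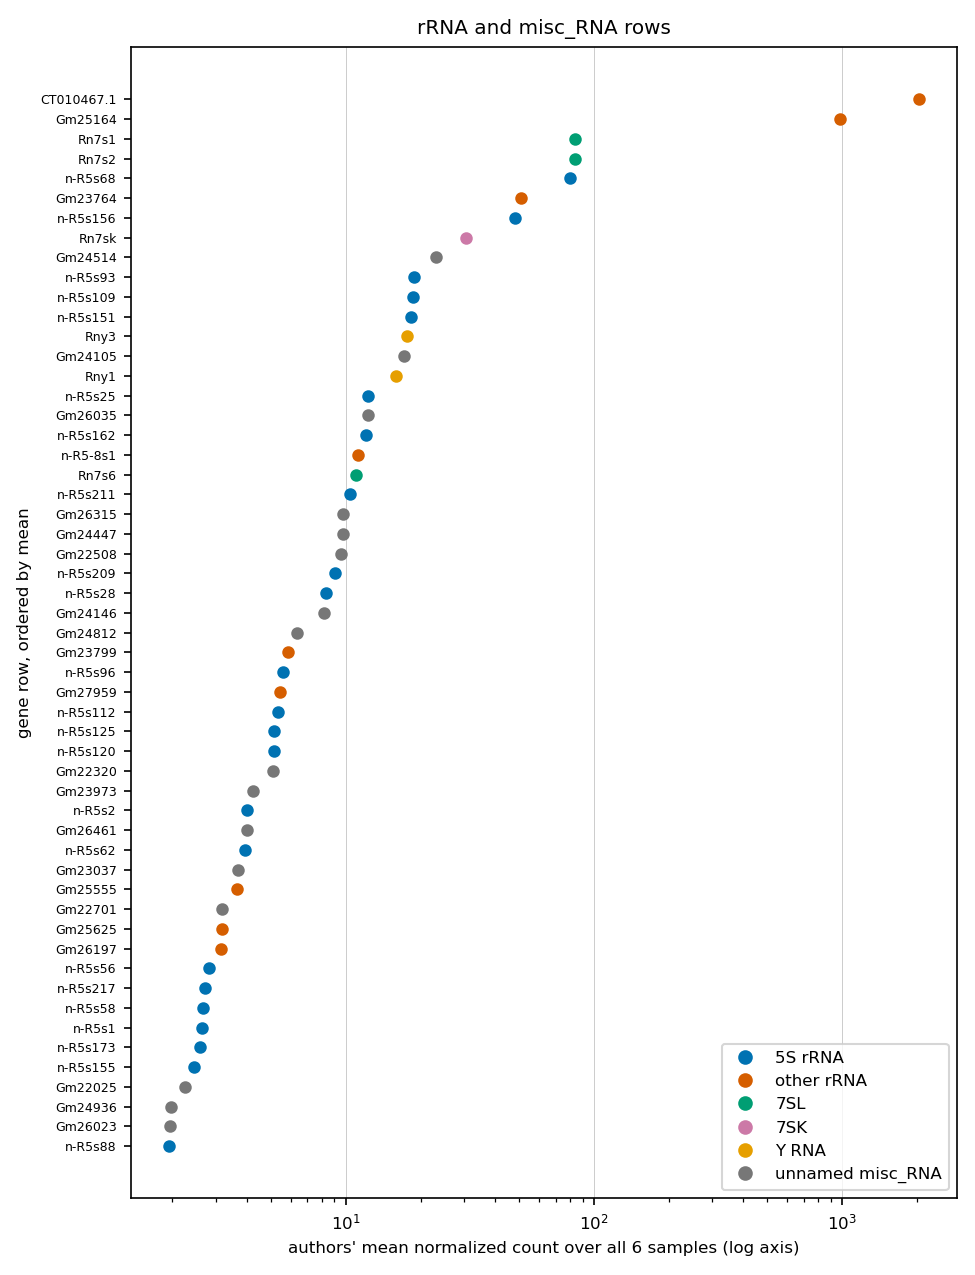
Each point is 1 of the 54 rRNA and misc_RNA rows, ordered from top to bottom by the authors' mean normalized count over all 6 samples (horizontal log axis) and coloured by name group; there are no error bars because the table holds no values per sample. CT010467.1 (2050) and Gm25164 (977) stand far to the right of Rn7s1 (84.2), and 33 rows lie below 10.

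The levels of other classes in the same table are given beside these values. Protein-coding rows, 8439 in number, held 81.5% of the summed mean. All sums cover listed rows only and are not the RNA content of the libraries. The 61 snRNA rows (spliceosomal RNAs and relatives) summed to 1406 with a median of 8.31, and the 42 snoRNA rows to 463 with a median of 6.00. The 134 miRNA rows, the RNAs that the libraries were built to catch, summed to 5472 with a median of 7.64. The mitochondrial rRNAs mt-Rnr1 and mt-Rnr2 had means of 340 and 709, so that the pair summed to 1049. Of the 4 ribozyme rows, Rpph1, the RNA of ribonuclease P, had 30.9 and Rmrp, the RNA of ribonuclease MRP, had 5.41.

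Per 100 annotated bases of the longest transcript the order changed at the top. Gm25164 came first, at 842, CT010467.1 followed at 111, and then Gm23764 at 106, n-R5s68 at 98.1 and n-R5s156 at 45.7. Rn7s1 and Rn7s2 each stood at 28.1, Rny3 at 17.3 and Rn7sk at 9.21. Of the first 10 genes by mean, 8 were also among the first 10 by this scale. A read of a small RNA library covers only a piece of these RNAs, so neither scale is a number of molecules.

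CT010467.1 (ENSMUSG00000106106) is typed as an rRNA gene, and its longest transcript has 1849 bases at chr17:39846353-39848201 on the minus strand. Its first bases, printed above, read as the complement of the 3′ end of 18S rRNA, and RefSeq lists the 18S-related pseudogene Rn18s-rs5, also 1849 bases long, at almost the same place. On the opposite strand lies the lincRNA gene Gm42418, with a mean of 1117, whose transcript shared a run of 1244 bases with CT010467.1 as its reverse complement. On the same strand lies AY036118, another lincRNA gene, with a mean of 847, whose 923 bases were found whole within CT010467.1. The means of these neighbours were 54.5% and 41.3% of that of CT010467.1. Of the stretches of 22 bases in the transcripts of CT010467.1, only 28.5% were found on neither strand of any other annotated gene. How the authors assigned reads to overlapping genes or used strand is not given in the sources used here, so whether these rows hold different reads was not tested.

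Gm25164 (ENSMUSG00000089533), a 116-base rRNA gene, lies within the olfactory receptor gene Olfr1358 on the same strand and within the lincRNA gene Gm47944 on the other, and neither of those had a row. It differed from the commonest 5S array sequence by 28 edits, where an edit is a base changed, added or missing, and the longest run in common was 21 bases. Of its stretches of 22 bases, 93.7% occurred in no other annotated gene. Its mean was 12.1 times that of n-R5s68, the next of the 5S and 5S-like genes.

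The main 5S repeats form an array in the annotation on chromosome 8, with 51 rRNA genes on the minus strand at a median spacing of 1.70 kb over 85.0 kb. Of these, 32 have the commonest 119-base sequence exactly and 19 have one of 10 other sequences. None of the 32 identical copies had a row in the table. Only 4 array genes had one, namely n-R5s109 with a mean of 18.7, n-R5s112 with 5.31, and n-R5s120 and n-R5s125, each with 5.16.

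The listed copies were close to the commonest sequence but not identical to it. n-R5s112, n-R5s120 and n-R5s125 are identical to one another and lie 1 edit from it, and n-R5s109 lies 3 edits from it. Among the 47 array genes without a row were 15 that also differ from the commonest sequence, by up to 10 edits. The array also lies, on the opposite strand, within the protein-coding annotation Gm20388, whose mean was 976.0.

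**Figure D2:**
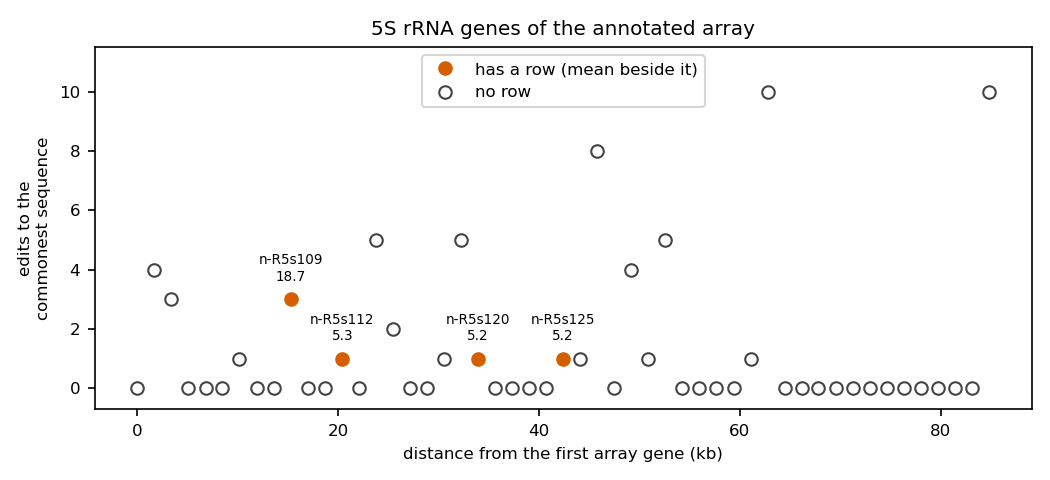
Each circle is 1 of the 51 genes of the 5S array, placed by its distance in kb from the first gene (horizontal) and the number of edits to the commonest sequence (vertical); filled circles have a row, with the mean normalized count beside them, and open circles have none. The 32 copies at 0 edits are all open, and the 4 filled ones lie at 1 or 3 edits.

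The other 19 named 5S genes lie outside the array, where the annotation holds 139. The named 5S group as a whole summed to 283, with a median of 5.31 and a range from 1.94 to 80.4. Its highest members were n-R5s68 (80.4), n-R5s156 (48.0), n-R5s93 (18.9), n-R5s109 (18.7) and n-R5s151 (18.3). n-R5s25, n-R5s162 and n-R5s211 followed, from 12.3 down to 10.4. n-R5s68 is a fragment of 82 bases and n-R5s156 one of 105. The lowest were n-R5s173 (2.58), n-R5s155 (2.45) and n-R5s88 (1.94).

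The remaining named 5S genes had means between 2.64 and 9.07. n-R5s209 stood at 9.07, n-R5s28 at 8.36 and n-R5s96 at 5.58. n-R5s2, on the X chromosome, stood at 3.99 and n-R5s62 at 3.92. n-R5s56, n-R5s217, n-R5s58 and n-R5s1 lay close together at 2.80, 2.72, 2.65 and 2.64.

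Of the 9 other rRNA genes, 7 are called 5S-like here, because the named gene with which they share their longest run is a 5S gene and that run has at least 12 bases. With a run of at least 22 bases, the length used for the unnamed misc_RNA genes, 5 would be, without Gm25164 (21 bases) and Gm25625 (17 bases). Besides Gm25164 these were Gm23764 (50.7), Gm23799 (5.86), Gm27959 (5.43), Gm25555 (3.66), Gm25625 (3.16) and Gm26197 (3.13). Gm23764 is only 48 bases long, and 27 of them, or 56.2%, are 1 run of the array sequence. The last of the 9 was n-R5-8s1, named for 5.8S rRNA, which is 148 bases long and had a mean of 11.2. All of its stretches of 22 bases were found in no other annotated gene, but genome sequence outside annotated transcripts was not searched.

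Across the 30 named and 5S-like genes, the number of edits to the commonest array sequence did not order the means. Missing bases count as edits, so Gm23764, with 48 bases, had 76. The count thus mixes length with likeness, and likeness of the bases present was not tested. The number of edits ran from 1 to 76, with a median of 14.5, and Spearman's rho between edits and mean was -0.02, given as a description across genes that share sequence and so perhaps reads. The 6 genes with 1 to 5 edits had a median mean of 5.23, the 9 with 6 to 15 edits 9.07, and the 15 with more 3.92. The 30 genes lie on 15 chromosomes, and 15 have the full 119 bases.

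**Figure D3:**
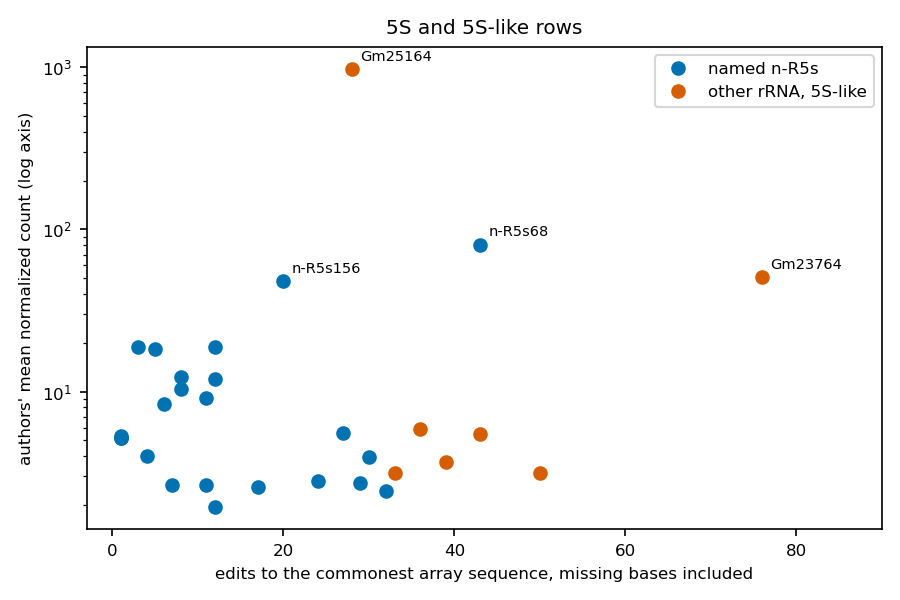
Each point is 1 of the 30 named 5S and 5S-like rows, by the number of edits to the commonest array sequence with missing bases included (horizontal) and the authors' mean normalized count (vertical log axis), with named n-R5s genes and other rRNA genes in different colours. The 4 labelled rows with means above 40, Gm25164 the highest at 977, have from 20 to 76 edits, while those with 1 to 5 edits lie between 3.99 and 18.7.

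n-R5s1 lies on the Y chromosome, although the study's methods describe female mice. Its mean was 2.64, and 56.1% of its stretches of 22 bases occurred in other annotated genes, with a run of 54 bases in common with the array. It was 1 of 20 rows on the Y chromosome, with means from 2.64 to 47.9. Of these, 8 were protein-coding genes, including Ddx3y at 9.52, Kdm5d at 19.5, Uty at 22.7 and Eif2s3y at 10.2. Xist, the RNA that coats the inactive X chromosome, had no row.

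Rn7s1 and Rn7s2 had the highest means of the named genes outside the ribosome, while Rn7s6, the other 7SL gene, lay below Rn7sk, Rny3 and Rny1. Rn7s1 and Rn7s2, both on chromosome 12, had means of 84.2 and 84.2, which differed by 0.0713. Their 300-base transcripts are identical, so a read from one matches the other, and whether both means hold the same reads was not tested. With identical transcripts counted once, the sum of the 7SL genes was 95.2 in place of 179. Rn7s6, on chromosome 6, has 291 bases with a run of 173 in common with Rn7s1, and its mean was 11.0.

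Within these genes the annotation also places miRNA genes, which had rows of their own. Gm47295, at bases 224 to 300 of Rn7s1, had a mean of 71.6, which is 85.1% of the mean of Rn7s1. Gm47287, at bases 143 to 212, had 17.0, or 20.1%. In Rn7s2 the matching genes Gm47299 and Gm47305 had 71.5 and 17.0. In both genes the miRNA row at the 3′ end was thus the higher, and the percentages of the pair in Rn7s1 add to more than 100%. Whether 1 read was counted for both overlapping genes is not given in the sources used here. In Rn7s6 the miRNA gene Gm47304, at bases 143 to 212, had 5.27, or 47.8% of its host.

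miRNA genes with rows also lay within a pair of unnamed misc_RNA genes that share sequence with 7SL. The misc_RNA gene Gm24105 (ENSMUSG00000092674) had a mean of 17.1, and a miRNA gene of the same symbol (ENSMUSG00000105790), at its bases 218 to 293, had 15.8, or 92.3%. Gm22701 had a mean of 3.18, and the miRNA gene Gm47306, at its bases 134 to 193, had 3.05, or 96.0%. Across these 5 genes the mean of a miRNA row was from 20.1% to 96.0% of that of its 7SL-type row, and whether the rows hold the same reads was not tested.

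**Figure D4:**
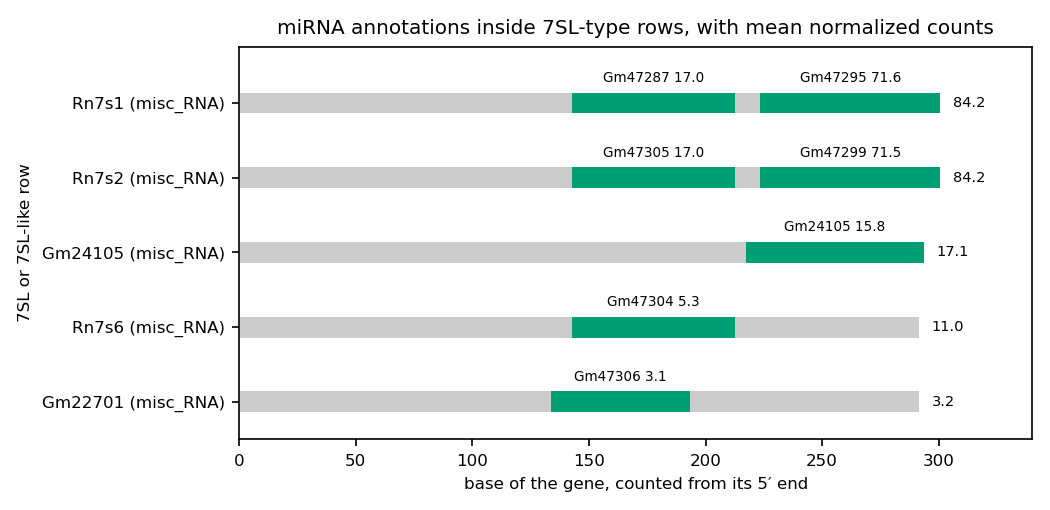
Grey bars are the 5 7SL or 7SL-like misc_RNA genes drawn to scale by base from the 5′ end (horizontal), with each gene's mean normalized count at its right end, and green blocks are the miRNA genes annotated inside them, with their own means above. The blocks at the 3′ ends of Rn7s1 and Rn7s2 have 71.6 and 71.5, and those in the middle 17.0 each.

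Rn7sk, the 7SK RNA gene, has 331 bases on chromosome 9 and had a mean of 30.5. It was the only gene named for 7SK, but 9 of the 16 unnamed misc_RNA genes shared at least 22 bases in a run with it. Gm26035 (12.3), Gm26315 (9.75), Gm24447 (9.75) and Gm24146 (8.19) had the highest means of these and the longest runs, of 109, 235, 241 and 79 bases. Gm26315 and Gm24447 lie on different chromosomes and differ by 54 edits, yet their means were the same to the last digit given. They share a run of 235 bases, which is also in Rn7sk. Gm23973 (4.23), Gm23037 (3.66), Gm22025 (2.25), Gm24936 (1.97) and Gm26023 (1.96) made up the rest.

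Of the other 7 unnamed genes, 5 shared their longest run with 7SL, and 1 each went with Rny1 or with none. Gm24514 (23.1), with a run of 64 bases in common with Rn7s1, was the highest of all 16. Gm24105 (17.1) shared 58 bases, Gm24812 (6.37) 35, Gm26461 (3.98) 104 and Gm22701 (3.18) 40. Gm22320 (5.07) shared no more than 12 bases with any named gene, and lies in the gene Fam13c on the opposite strand. Grouped by sequence in this way, 7SL had 8 genes summing to 233, 7SK 10 summing to 84.5 and Y RNA 3 summing to 43.1.

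**Figure D5:**
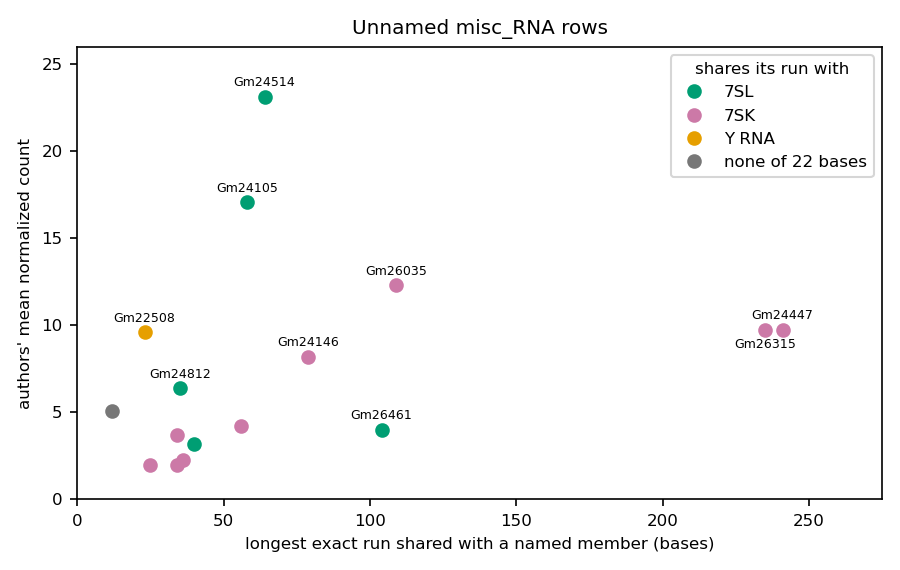
Each point is 1 of the 16 unnamed misc_RNA rows, by its longest exact run in common with a named member, in bases (horizontal), and the authors' mean normalized count (vertical), coloured by the RNA with which it shares that run; rows above 6 or with runs above 100 bases are labelled. Gm24514 (23.1) and Gm24105 (17.1), both with 7SL runs, lie highest, and Gm26315 and Gm24447 lie far right at the same mean of 9.75.

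Rny3 and Rny1, the Y RNA genes, lie near each other on chromosome 6 and had means of 17.7 and 15.9. Y RNAs fold into a stem from their paired ends, and their longest run in common was the 12 bases in capitals above. Rny3 shared no stretch of 22 bases with any other annotated gene, while 50.5% of those of Rny1 occurred elsewhere. The unnamed gene Gm22508, with a mean of 9.58, shared a run of 23 bases with Rny1 and differed from it by 18 edits.

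Many of these genes hold sequence in common. Of the 54, 48 shared at least 1 stretch of 22 bases, about the length of a mature miRNA, with another of the 54, and 39 shared one of 30 bases. The study's methods give sequencing read lengths that differ between sections. The length of the reads on these genes after adaptor removal is unknown. For 5 genes, Rn7s1, Rn7s2, n-R5s112, n-R5s120 and n-R5s125, every such stretch occurred in another annotated gene. For 3 genes, Rny3, n-R5-8s1 and Gm22320, none did. How reads with several matches were counted is not given in the sources used here.

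The genes with rows were a small part of those annotated with these types. Of 354 annotated rRNA genes 9.04% had a row, and of 562 misc_RNA genes 3.91%. The share over all annotated genes was not counted, so low shares cannot be called particular to these types. Among the genes named n-R5s it was 23 of 180. Stretches of 22 bases found in no other gene made up a median of 61.9% of an rRNA gene with a row and 92.3% of one without. For misc_RNA genes the medians were 59.7% and 98.8%. Genes with no such stretch at all ran the other way, with 3 of the 32 rRNA genes that had a row and 63 of the 322 that had none, and 2 of 22 and 88 of 540 misc_RNA genes. A gene without a row may have had no reads or may not have been listed, and no test was made.

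Some of these genes lay within or across other genes. Of the 54 genes, 26 overlapped another annotated gene and 23 overlapped one with a row. The same share over all rows was not counted, so these counts cannot be called high or low. A protein-coding gene was overlapped by 19, by 7 on the same strand and by 12 on the opposite strand. All 8 named 5S genes that overlapped a protein-coding gene lay on its opposite strand, 4 of them within Gm20388. n-R5s151 (18.3) lay opposite Npas1 (20.8) and n-R5s25 (12.3) opposite Cdc23 (13.7), while n-R5s88 (1.94) lay opposite Ephb1 (47.1). On the same strand, Gm26315 (9.75) lay within Celf2 (83.9) and Gm22701 (3.18) within Hydin (87.2). The part of the overlapping genes' reads in these means was not tested.

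The protein partners of these RNAs in these small RNA libraries were listed from their known complexes. Of 52 annotated partner genes 21 had a row, with a median mean of 4.06, beside 6.77 over all 8439 protein-coding rows. The share of all protein-coding genes with a row was not counted. The 5S-binding ribosomal proteins Rpl5 and Rpl11 had 5.83 and 6.70, and the assembly factor Rpf2 had 3.75. Ssb, the La protein that binds new RNA polymerase III transcripts, had 3.51, and Trove2, the Ro protein that binds Y RNA, had 3.95. Of the 9 signal recognition particle and receptor genes, Srpr (20.5), Srp54c (4.02) and Srp72 (2.62) had a row.

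For 7SK, Larp7, which protects its 3′ end, had 3.53 and Ccnt1, the cyclin of P-TEFb, had 2.55, while Hexim1, Mepce and Cdk9 had no row. Of the vault particle's proteins, Parp4 had 21.6 and Tep1 2.32. RNA polymerase III and its factors had 9 of 26 genes listed, from Gtf3c3 at 2.58 to Polr3g at 74.1 and Gtf3c5 at 355. Levels in such libraries are of short fragments, and are not the levels of the messenger RNAs.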

How the data were processed

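Small RNA libraries of whole mouse hearts, 3 ADAR2 knockout and 3 wild type, were analysed from 1 deposited table with 10065 gene rows. Per the labels and the study's methods, the authors used Cutadapt, Bowtie and DESeq, and the labels name build mm9. The methods also name NextGenMap, for mapping to mature miRNA sequences. Versions, the gene annotation, use of strand and treatment of reads with several matches are not given in the sources used here. The deposited level is a signal, the authors' mean normalized count over all samples, with no values per sample. The other 6 value columns, the authors' fold changes, errors, statistics and p-values for the genotypes, were not used, so the planned genotype test could not be run and depth per library is unknown.

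Names, coordinates and sequences came from GENCODE M21 (GRCm38) by Ensembl identifier, which matched 10005 rows and not 60. To find stretches of 22 bases in no other gene, both strands of all 141767 transcripts were searched. The genome outside these transcripts was not searched, so a stretch found in no other annotated gene may still occur elsewhere in it. Runs in common and edits were taken on the annotated strand, apart from the reverse complement run of CT010467.1 and Gm42418. Edits were counted with edlib 1.3.9.post1 in Python 3.11.15. The comparison of stretches and runs was tested on simulated sequences. Some sequences are not reported here.

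Named were genes with a descriptive symbol, a mean of at least 10, the 3 highest and 3 lowest of each group, and equal means. The remaining members are named as well. Members, partner genes and markers were chosen with earlier results of these data known. Alternatives were group by sequence, a floor of 10, rows with equal means or identical transcripts counted once, members without overlaps, values per 100 bases, another denominator and stretches of 18 or 30 bases.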

Additional observations from a re-analysis of the deposited data

How the results depend on the processing

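With no spread between replicates in the table, a value was taken as moved when it changed by over 1.5 times. Of 57 alternative values 18 moved and 39 did not, but 22 of the 39 equalled the original value, many of them because the alternative removed no gene, as with a floor of 1, so the count is no measure of stability. Grouping other rRNA and unnamed genes by a shared run of at least 22 bases, longer than the 12 that define 5S-like genes, gave 28 5S, 4 other rRNA, 8 7SL, 10 7SK, 3 Y RNA and 1 unnamed gene. Counting rows with equal means once kept both Rn7s1 and Rn7s2. Counting identical transcripts once gave a 7SL sum of 95.2 and median of 47.6. Without members that overlap another row, the summed mean was 1055 for other rRNA and 69.4 for unnamed genes, and none of the 7SL genes remained. Per 100 bases the sums were 1085 for other rRNA, 59.9 for 7SL, 9.21 for 7SK and 46.1 for unnamed genes. A floor of 10 on the mean gave a sum of 52.5 for unnamed genes, and medians of 18.5 for 5S, 514 for other rRNA and 17.1 for unnamed genes, since it keeps only the higher genes. The members' share of the table was 9.48% among rows that are not protein coding. Without CT010467.1 and Gm25164 it was 0.342%. That alternative and the one on identical transcripts were chosen after seeing the data. Of the members, 49 shared a stretch of 18 bases with another and 39 one of 30, against 48 for 22 bases.

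No paired analysis was possible because only a mean over the 6 samples was at hand. Leaving out each replicate, another scaling and a second count test also need values per sample and were not run. Matching by symbol was not run because the table holds identifiers only. Without per-sample values no spread, depth or detection limit can be given for any gene.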
